A study of Mus musculus with 24 samples.

Results

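The CC chemokine ligands are small secreted proteins with adjacent cysteines near the amino terminus that attract leukocytes through G protein-coupled receptors. Of this family, 9 genes of the deposited table of 17270 genes are described here: Ccl2, Ccl3, Ccl4, Ccl5, Ccl6, Ccl7, Ccl9, Ccl12 and Ccl24, each found as the row that carries its symbol. The list of 9 was drawn up with results of the ipsilateral stroke libraries known and names no threshold, so the stroke differences of these genes are a description and carry no test. All 9 passed the filter on low values and none was at 0 in any library. Another 9 CC ligands of the table serve for comparison.

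RNA was sequenced from brain microvessel fragments of male wild-type C57BL/6J mice of 10 to 12 weeks, in 24 libraries. The mice had undergone 60 min of transient middle cerebral artery occlusion (tMCAO), in which a filament blocks the artery and is then withdrawn so that blood returns, or a sham operation. Vessels were taken from the ipsilateral or the contralateral hemisphere at 24 h or 7 days, which gives 8 groups of 3 libraries, and each library pooled 3 hemispheres of the same kind. The mice were perfused with buffer, the meninges were removed, and infarct, its border and intact tissue of a hemisphere went into the preparation together. Values are normalized counts, meaning reads per gene divided by a size factor of the library. Replicate libraries are separate pools, and the authors had dropped samples that they judged outliers.

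The family is grouped here by target cell and receptor. Ccl2, Ccl7 and Ccl12 are the monocyte chemoattractants that bind Ccr2, the receptor through which inflammatory monocytes leave the bone marrow and enter tissue. Ccl3 and Ccl4 are the macrophage inflammatory proteins and Ccl5 is also known as RANTES, and they act on monocytes, T cells and natural killer cells. Ccl6 and Ccl9 are rodent ligands of Ccr1 made largely by myeloid cells. Ccl24 is an eotaxin, a ligand of Ccr3 that attracts eosinophils. After cerebral ischemia, endothelial cells, astrocytes, microglia and infiltrating leukocytes can all make CC ligands, and the ligands are held on the luminal surface of endothelium where they arrest rolling leukocytes.

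In the mm10 genome, 8 of the 9 genes lie within 1.63 Mb of chromosome 11, in a pair of blocks that are 1422.4 kb apart. The first block holds Ccl2 (ENSMUSG00000035385, chr11:82035571-82037453, plus strand), Ccl7 8.3 kb further on (ENSMUSG00000035373, chr11:82045712-82047525, plus strand) and Ccl12 (ENSMUSG00000035352, chr11:82101845-82103400, plus strand). The second holds Ccl5 (ENSMUSG00000035042, chr11:83525778-83530518), Ccl9 (ENSMUSG00000019122, chr11:83572919-83578636), Ccl6 (ENSMUSG00000018927, chr11:83587882-83593087) and Ccl3 (ENSMUSG00000000982, chr11:83647844-83649355) on the minus strand, and Ccl4 (ENSMUSG00000018930, chr11:83662584-83664683) on the plus strand. Ccl9 and Ccl6 are 9.2 kb apart, and Ccl3 and Ccl4 13.2 kb. Only Ccl24 (ENSMUSG00000004814, chr5:135569937-135573049, minus strand) lies on another chromosome. All 9 are annotated as protein coding.

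Promoter sequence was at hand for 4 of the 9 genes, from RefSeq on GRCm38.p6, and is shown because Ccl6 and Ccl9, which are neighbours on chromosome 11, were one of the closest pairs of ligands across libraries. Each run is the 250 bases before the annotated start, written 5′ to 3′ on the strand of the gene, and capitals mark matches to a searched motif on either strand. The windows are chr11:82101595-82101844 (plus) for Ccl12, chr11:83578637-83578886 (minus) for Ccl9, chr11:83593088-83593337 (minus) for Ccl6 and chr11:83649379-83649628 (minus) for Ccl3.
Ccl12: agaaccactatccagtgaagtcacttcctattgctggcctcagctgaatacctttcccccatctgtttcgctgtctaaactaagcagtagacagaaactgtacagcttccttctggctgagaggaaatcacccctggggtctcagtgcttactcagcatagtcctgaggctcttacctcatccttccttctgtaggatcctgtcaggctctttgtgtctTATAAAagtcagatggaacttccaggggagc
Ccl9: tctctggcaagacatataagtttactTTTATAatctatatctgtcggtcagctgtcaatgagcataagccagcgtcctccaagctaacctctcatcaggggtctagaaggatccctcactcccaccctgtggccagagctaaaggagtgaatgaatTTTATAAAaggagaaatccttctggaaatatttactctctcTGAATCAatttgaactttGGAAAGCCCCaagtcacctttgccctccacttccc
Ccl6: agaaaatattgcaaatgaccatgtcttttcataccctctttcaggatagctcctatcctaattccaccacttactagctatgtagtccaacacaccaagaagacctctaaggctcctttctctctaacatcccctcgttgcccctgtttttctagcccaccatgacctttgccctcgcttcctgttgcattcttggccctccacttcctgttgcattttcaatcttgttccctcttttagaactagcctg
Ccl3: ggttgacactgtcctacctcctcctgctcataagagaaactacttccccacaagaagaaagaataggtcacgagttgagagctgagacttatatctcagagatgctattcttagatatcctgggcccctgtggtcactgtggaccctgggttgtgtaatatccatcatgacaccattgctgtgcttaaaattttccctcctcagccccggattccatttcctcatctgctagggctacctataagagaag

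The 5 motifs searched were TGANTCA for AP-1, the NF-kappaB consensus, TATAAA for the TATA box, TTGCNNAA for C/EBP and the core of an interferon-stimulated response element. The Ccl12 window held TATAAA at 31 to 26 bases before the start. In Ccl9 the AP-1 motif lay 53 to 47 bases and an NF-kappaB match 35 to 26 bases before the start, and TATAAA matches lay 92 to 87, 94 to 89 and 224 to 219 bases before it, the first 2 of which overlap. Windows of Ccl6 and Ccl3 matched none of the 5 motifs, and neither the C/EBP nor the interferon motif was found in any of the 4. Among 32851 promoter windows of the same length, 6.75% held AP-1, 7.25% NF-kappaB, 12.4% TATAAA, 9.56% the C/EBP motif and 2.98% the interferon motif. The longest run shared by Ccl9 and Ccl6 was the 13 bases gccctccacttcc, and the other pairs shared 7 to 9 bases. These matches describe letters, not sites in use.

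Totals per library ran from 15924780 to 18787932 normalized counts, with reads on genes estimated at 13691467 to 20033951. Markers of brain endothelium dominated as the label requires: the 9 endothelial genes summed to 314438 to 495600 counts per library, and Slc2a1, the glucose transporter of the blood-brain barrier, was the most abundant. All markers of microglia, perivascular macrophages, monocytes and neutrophils were also in the table. In such bulk samples, fewer cells of a type and less RNA per cell cannot be told apart. Sums of 7 perivascular macrophage markers were 2036 to 8471 and those of 8 microglia markers 1597 to 3691.

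**Figure D1:**
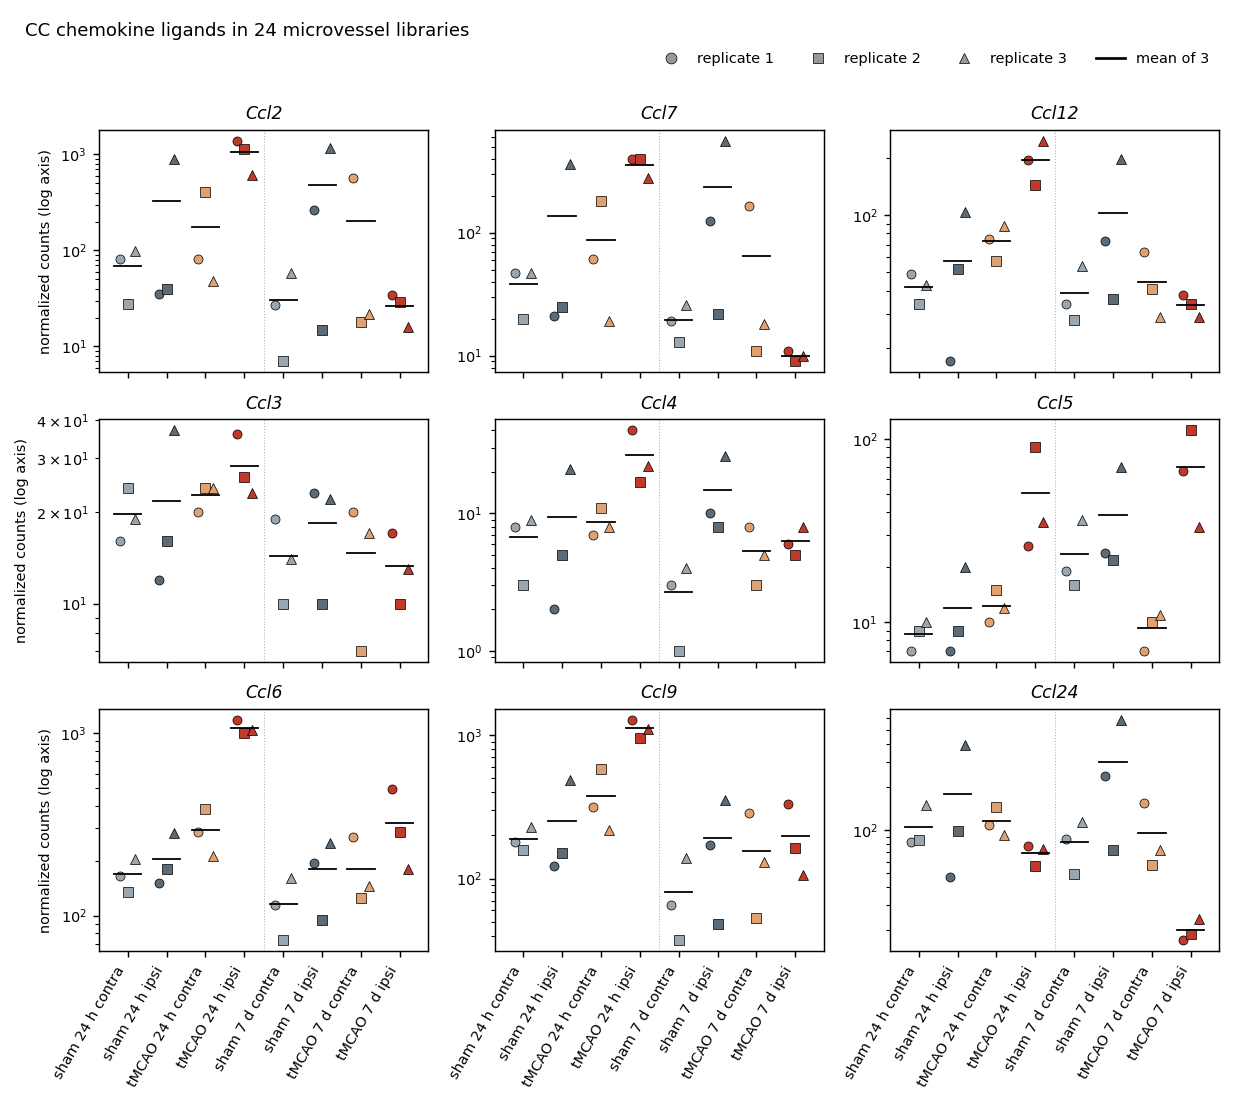
Normalized counts (log axis) of the 9 CC ligands in each of 24 libraries, by group on the horizontal axis; symbols give the replicate, the bar the mean of 3. Ipsilateral tMCAO libraries at 24 h are highest for Ccl6 and Ccl9, and for Ccl2 and Ccl7 the third sham ipsilateral library stands far above the others of its group at both time points.

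Ccl6 and Ccl9 were the ligands whose ipsilateral tMCAO libraries at 24 h stood above every other library. Ccl6 read 1180, 997 and 1038 normalized counts in the ipsilateral tMCAO libraries at 24 h (mean 1072 ± 96.0, SD, n = 3) and 151, 181 and 284 in the ipsilateral sham libraries (205 ± 69.8). Ccl9 read 1277, 957 and 1107 after tMCAO (1114 ± 160) and 122, 150 and 489 after sham surgery (254 ± 204). For both genes the lowest stroke library was above the highest of the other 21 libraries. The log2 difference was 2.43 ± 0.39 (SE) for Ccl6 and 2.41 ± 0.68 for Ccl9, on log2 of the normalized count plus 1, and both passed the call of an adjusted p under 0.05 with a log2 difference beyond 0.585. Ccl6 kept its call under each removal of 1 library, while that of Ccl9 was lost without sham replicate 1 (2.02).

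By 7 days Ccl6 and Ccl9 were back near the sham range, more so for Ccl9. Ccl6 read 496, 287 and 180 in the ipsilateral tMCAO libraries (321 ± 161) and 193, 94 and 250 after sham surgery (179 ± 78.9), a log2 difference of 0.83 ± 0.39 that was not called. For Ccl9 the stroke libraries read 329, 163 and 106 (199 ± 116) and the sham libraries 172, 48 and 353 (191 ± 153), a log2 difference of 0.32 ± 0.68. Libraries of both groups overlapped for both genes. Between 24 h and 7 days after stroke the log2 difference was -1.85 ± 0.39 for Ccl6 and -2.62 ± 0.68 for Ccl9, both called, and no libraries overlapped. Of all genes 8.44% were called lower in this comparison, and 19.9% were lower without overlap.

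The monocyte chemoattractants were high at 24 h and at or under the sham range at 7 days. Ccl2 read 1388, 1149 and 609 counts in the ipsilateral tMCAO libraries at 24 h (1049 ± 399) and 34, 29 and 16 at 7 days (26.3 ± 9.29), a log2 difference of -5.25 ± 1.43. Ccl7 read 394, 393 and 278 (355 ± 66.7) and then 11, 9 and 10 (10.0 ± 1.0), a log2 difference of -5.0 ± 1.1. Ccl12 read 195, 144 and 246 (195 ± 51.0) and then 38, 34 and 29 (33.7 ± 4.51), a log2 difference of -2.47 ± 0.53. For each of the 3 genes every library at 24 h was above every library at 7 days, as in 19.9% of all genes. All 3 differences were called, where 8.44% of all genes were called lower. The Ccl2 call was lost on some removals of 1 library.

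Sham libraries set how large the stroke difference of Ccl2 and Ccl7 looks. In the ipsilateral sham libraries at 24 h Ccl2 read 35, 40 and 904 (326 ± 500) and Ccl7 21, 25 and 363 (136 ± 196), so that replicate 3 reached the range of the stroke libraries. The log2 difference between tMCAO and sham was 3.17 ± 1.43 for Ccl2 and 2.57 ± 1.10 for Ccl7, and neither was called. Without replicate 3 of the sham group both were called, at 4.69 for Ccl2 and 3.88 for Ccl7. Ccl12 read 17, 52 and 104 after sham surgery (57.7 ± 43.8), and its log2 difference of 2.04 ± 0.53 was called with no overlap of libraries. Without sham replicate 1 the Ccl12 difference was 1.36 and lost its call.

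At 7 days the same 3 genes were lower after stroke than after sham surgery, and again the sham libraries were widely spread. Ccl2 read 267, 15 and 1170 in the ipsilateral sham libraries at 7 days (484 ± 607), Ccl7 125, 22 and 557 (235 ± 284) and Ccl12 73, 36 and 198 (102 ± 84.9). The log2 difference was -2.71 ± 1.43 for Ccl2, -3.42 ± 1.10 for Ccl7 and -1.24 ± 0.53 for Ccl12. Only Ccl7 was called among them, with all stroke libraries below all sham libraries. That call rested on the full set of libraries: leaving out any of 5 of the 6 ended it, with Ccl7 at -2.29 without sham replicate 3, and without sham replicate 2 Ccl2 (-4.42) and Ccl12 (-1.82) were called as well.

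Ccl24, the eotaxin, was low in every ipsilateral stroke library at 7 days. In the ipsilateral tMCAO libraries it read 77, 56 and 74 at 24 h (69.0 ± 11.4) and 17, 19 and 24 at 7 days (20 ± 3.6). Ipsilateral sham libraries read 47, 99 and 391 at 24 h (179 ± 185) and 239, 72 and 584 at 7 days (298 ± 261). The log2 difference from sham was -0.83 ± 0.64 at 24 h, not called and at 0.0013 without sham replicate 3, and -3.38 ± 0.64 at 7 days, called with no overlap and under each removal of 1 library. All 3 stroke libraries at 7 days were below the other 21 libraries, whose lowest value was 47. Against the contralateral hemisphere at 7 days, which read 155, 57 and 72, the log2 difference was -2.07 ± 0.64 and was called, but not without contralateral replicate 1 or ipsilateral replicate 1 or 2, where it ran from -1.65 to -2.04.

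Beside Ccl24, some perivascular macrophage markers were also lower at 7 days after stroke than after sham surgery on the ipsilateral side. Among those 7 markers, 3 were called lower (Cd209f -2.56, Pf4 -1.66 and Mrc1 -1.23 on the log2 scale) and Siglec1 was called higher. Their summed counts were 2036 to 2553 in the ipsilateral tMCAO libraries and 2667 to 4020 in the ipsilateral sham libraries, and no marker of the list was at 0 in a group. Sums of 4 choroid plexus markers were 647 to 3092 after stroke against 15681 to 28828 after sham surgery, and 2 of the 4 were called lower. Neuron markers were called lower for 6 of 6, with sums of 413 to 762 against 3433 to 5992. Fibroblast markers were called lower for 2 of 5, Dcn and Lum, with sums of 5863 to 6242 against 8900 to 14675. Over all genes 9.95% were called lower in this comparison. In the contralateral tMCAO libraries at 7 days, where Ccl24 read 155, 57 and 72, macrophage sums were 2518 to 2840 and fibroblast sums 4876 to 7911. Choroid plexus sums there were 2541 to 18382 and neuron sums 3742 to 12058. The part of any of these cell sources in the Ccl24 values was not tested.

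Ccl5 was the only member whose mean in the ipsilateral stroke libraries was higher at 7 days than at 24 h. It read 26, 90 and 35 at 24 h (50.3 ± 34.6) and 67, 111 and 33 at 7 days (70.3 ± 39.1), and these ranges overlapped, with a log2 difference of 0.52 ± 0.51. Ipsilateral sham libraries read 7, 9 and 20 at 24 h (12.0 ± 7.00) and 24, 22 and 70 at 7 days (38.7 ± 27.2). The log2 difference from sham was 1.91 ± 0.51 at 24 h, called with no overlap, and 0.89 ± 0.51 at 7 days, not called. The call at 24 h was lost without sham replicate 1 (1.62) and without stroke replicate 2 (1.39).

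Against the contralateral hemisphere Ccl5 was called higher at both times. Contralateral tMCAO libraries read 10, 15 and 12 at 24 h (12.3 ± 2.52) and 7, 10 and 11 at 7 days (9.33 ± 2.08). The log2 difference of the ipsilateral side was 1.76 ± 0.51 at 24 h and 2.65 ± 0.51 at 7 days, both called with no overlap. The call at 24 h was lost on some removals of a single library. At 7 days the contralateral tMCAO libraries were themselves below the contralateral sham libraries, which read 19, 16 and 36. Summed markers of T and natural killer cells, which both make Ccl5 and respond to it, were 78 to 144 counts in the ipsilateral tMCAO libraries at 24 h and 153 to 371 at 7 days. They were 32 to 60 and 80 to 167 in the corresponding sham libraries and 33 to 48 and 39 to 52 in the contralateral tMCAO libraries. Against sham, Lck (1.42 on the log2 scale) was the only tested marker of this list called at 24 h. At 7 days Gzma (1.37), Gzmb (1.76), Nkg7 (1.38), Lck (1.20) and Trbc2 (-0.74) were not called. Library by library, Ccl5 and the T and natural killer cell sum had the same order in the ipsilateral tMCAO group at 7 days. They did not at 24 h, where Ccl5 read 26, 90 and 35 and the sums were 92, 144 and 78. Their relation was not tested.

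Ccl3 and Ccl4 were low everywhere and Ccl4 differed more than Ccl3. Ccl4 read 40, 17 and 22 counts in the ipsilateral tMCAO libraries at 24 h (26.3 ± 12.1) and 2, 5 and 21 after sham surgery (9.33 ± 10.2), a log2 difference of 1.81 ± 0.60 that was called. The ranges overlapped, and without sham replicate 1, sham replicate 2 or stroke replicate 1 the difference was 1.16, 1.66 or 1.47 and not called. At 7 days Ccl4 read 6, 5 and 8 after tMCAO and 10, 8 and 26 after sham surgery, with a log2 difference of -0.94 ± 0.60. Ccl3 stayed between 7 and 37 counts in all 24 libraries, and its log2 difference from sham was 0.50 ± 0.41 at 24 h and -0.38 ± 0.41 at 7 days. Of these differences from sham, only that of Ccl4 at 24 h was called. Smaller differences could have been missed at such low counts.

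Counted together, 5 of the 9 ligands were called higher and none lower in ipsilateral tMCAO against sham vessels at 24 h, where 18.3% of the 15982 genes tested were called in either direction and 10% were called higher. Their median log2 difference was 2.04, against -0.02 over all genes, and in 4 of the 9 all stroke libraries exceeded all sham libraries, as in 25% of all genes. Without sham replicate 1 at 24 h the count of calls was 1 of 9, Ccl6. At 7 days 2 of 9 were called lower and none higher, where 13.2% of all genes were called and 9.95% were called lower. The median over the ligands was -0.94 against 0.02 over all genes, and 2 of 9 had all stroke libraries below all sham libraries, as in 16.6% of all genes. Since the list was drawn up with these libraries known, nothing is read from these counts.

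**Figure D2:**
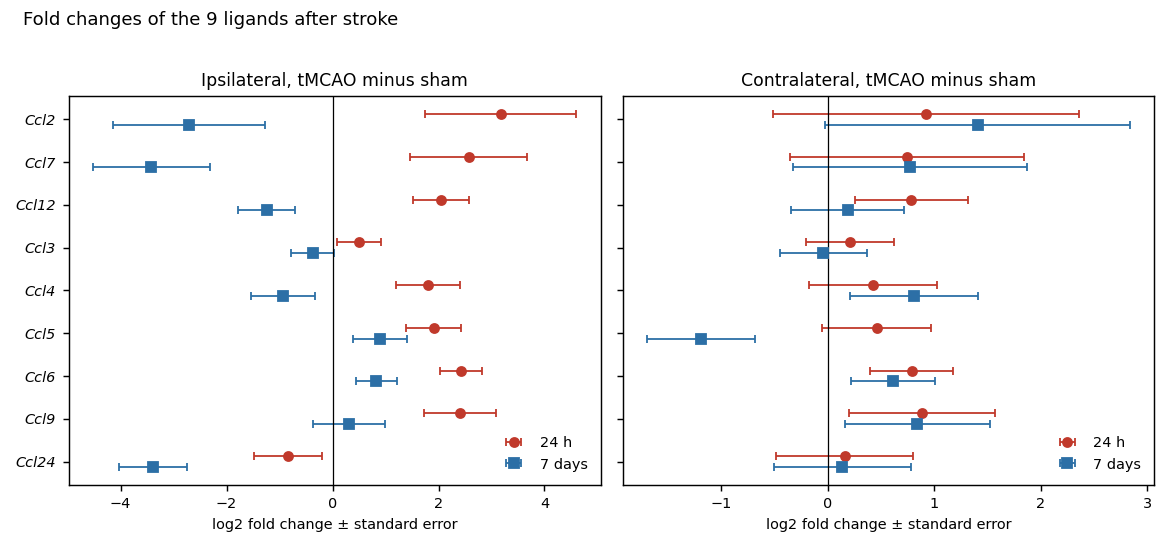
Log2 fold change ± standard error of each ligand for tMCAO minus sham vessels, ipsilateral on the left and contralateral on the right, at 24 h (circles) and 7 days (squares). On the ipsilateral side 8 of 9 values are above 0 at 24 h and 3 of 9 at 7 days; the horizontal scales of the panels differ.

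The ipsilateral stroke difference itself changed between the time points for 3 of 9 ligands, in an interaction term that called 8.12% of all genes and 5.68% with a negative sign. The change, 7 days minus 24 h, was -5.99 ± 1.56 for Ccl7, -3.29 ± 0.75 for Ccl12 and -2.75 ± 0.85 for Ccl4. Ccl2, at -5.88 ± 2.03, and Ccl24, at -2.55 ± 0.91, were not called. The Ccl12 term kept its call under all 12 removals of 1 library, while that of Ccl7 lost it without ipsilateral sham replicate 1 at 24 h (-5.27) or replicate 3 at 7 days (-4.86), and that of Ccl4 kept it under 2 of 12. With all libraries in, the Ccl4 call was also lost with median centring (-2.64) and with only the compared groups in the fit. All 9 values were negative, from -0.88 for Ccl3 down to that of Ccl7. The 24 h and 7 days differences use separate sham groups, and without replicate 3 of both ipsilateral sham groups 4 of 9 were called, Ccl24 being added at -2.67. That removal was chosen after the values were seen.

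From 24 h to 7 days in the ipsilateral tMCAO libraries, 6 of 9 ligands were called lower, where 12.2% of all genes were called and 8.44% were called lower. Libraries did not overlap for 8 of 9, all of them lower at 7 days, as was so for 19.9% of all genes. Only Ccl5 overlapped. Over the 6 removals of 1 library the call of Ccl4 held in 1, without stroke replicate 2 at 24 h (-2.09), that of Ccl2 in 4 and that of Ccl9 in 5. Ccl2 lost it without stroke replicate 1 at 24 h (-5.0) or replicate 3 at 7 days (-4.94), and Ccl9 without the latter (-2.25), a removal that left 3 of 9 called. This comparison and those with the contralateral and sham vessels share the stroke libraries, so their values are not independent of each other.

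Against the contralateral hemisphere at 24 h, 2 of 9 were called, Ccl5 and Ccl6, both higher, where 13.6% of all genes were called and 8.51% were called higher. That count depended on the fit: 7 of 9 were called, each higher on the ipsilateral side, with a replicate block by mouse pool number and also with only the compared groups in the fit, and the exceptions were Ccl3 and Ccl24. Same-numbered stroke libraries at 24 h correlated at 0.066, 0.36 and 0.33 after group means were removed. All ipsilateral libraries exceeded all contralateral libraries for 7 of 9, as for 21.7% of all genes, and the exceptions were Ccl3 and Ccl24. The Ccl5 call was lost without contralateral replicate 1 (1.63) or ipsilateral replicate 2 (1.2). Contralateral Ccl2 read 81, 403 and 48, contralateral Ccl7 61, 181 and 19, and contralateral Ccl9 318, 585 and 219. In each of those groups replicate 2 was the highest library. The log2 differences of the ligands that were not called reached 3.08 ± 1.43 for Ccl2 and 2.53 ± 1.10 for Ccl7. At 7 days 2 of 9 were called, Ccl5 higher and Ccl24 lower, where 13% of all genes were called.

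Levels of the different ligands were compared per kilobase of exon. At 24 h after tMCAO the ipsilateral means were 921 normalized counts per kilobase for Ccl2, 597 for Ccl6, 443 for Ccl7, 366 for Ccl9 and 363 for Ccl12, and 37.0 to 53.3 for the other 4. At 7 days Ccl6 was highest at 179 per kilobase, followed by Ccl5 at 73.3, Ccl9 at 65.5 and Ccl12 at 62.7, and the other 5 were between 9.60 and 23.1. Contralateral sham vessels at 24 h had Ccl6 at 93.6, Ccl24 at 81.3 and Ccl12 at 78.2 per kilobase on top, and Ccl5 at 9.03 was lowest. At 7 days Ccl5 stood at 24.7 per kilobase in contralateral sham vessels, above Ccl7 (24.1), Ccl3 (18.7) and Ccl4 (4.04), and at 40.3 in ipsilateral sham vessels, above Ccl3 (23.9) and Ccl4 (22.2).

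Ordered by mean over the 8 groups, neighbouring groups overlapped in nearly every case. Ccl2, Ccl3, Ccl4, Ccl6, Ccl7, Ccl9 and Ccl12 were highest in ipsilateral tMCAO vessels at 24 h, Ccl5 in ipsilateral tMCAO vessels at 7 days and Ccl24 in ipsilateral sham vessels at 7 days. Neighbours without overlap were found for Ccl6 and Ccl9 between the top group and the next. They were also found for Ccl7 and Ccl24 between the lowest group, ipsilateral tMCAO at 7 days, and the one above it. For Ccl5 the contralateral sham vessels at 7 days, at 19, 16 and 36, separated from contralateral tMCAO vessels at 24 h.

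Comparisons that use no ipsilateral stroke library were tested with limma, which called none of the 9 in any of the 7. The ipsilateral sham and contralateral tMCAO libraries also enter the stroke differences known when the list was drawn up. Tests that use them are therefore not independent of that choice. Ipsilateral against contralateral sham vessels gave adjusted p = 1.0 for all 9 at both time points, and 0% of all genes were called. At 7 days 9 of 9 were higher on the operated side, with a median log2 difference of 1.10, and 3 of 9 had an unadjusted p under 0.05, as did 2.25% of all genes. The largest were 2.86 ± 1.43 for Ccl2, 2.58 ± 1.10 for Ccl7 and 2.02 ± 0.60 for Ccl4, and only for Ccl4 did libraries not overlap (10, 8 and 26 against 3, 1 and 4), as in 4.37% of all genes. At 24 h the sham difference was 0.83 ± 1.43 for Ccl2, and 0 of 9 had an unadjusted p under 0.05, as against 2.3% of all genes.

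No ligand passed the test between the contralateral hemispheres after tMCAO and after sham surgery. At 24 h 9 of 9 log2 differences were positive, from 0.16 to 0.92 with a median of 0.74, with adjusted p = 1.0 for each from limma, 0 of 9 with an unadjusted p under 0.05 against 2.53% of all genes, and 0% of all genes called. At 7 days the lowest adjusted p from limma was 0.436, for Ccl5 at -1.19 ± 0.51. Contralateral tMCAO libraries read 7, 10 and 11 for it and contralateral sham libraries 19, 16 and 36, without overlap. It was the 1 of 9 with an unadjusted p under 0.05, which 10.3% of all genes had, and 0.0313% of all genes were called. For Ccl2, 562, 18 and 22 counts stood against 27, 7 and 58, so the difference of 1.41 ± 1.43 rested on replicate 1.

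Time alone moved no ligand past the threshold in control vessels. From 24 h to 7 days after sham surgery the largest ipsilateral difference was 1.53 ± 0.51 for Ccl5, with no overlap of libraries and an adjusted p of 0.171 from limma, where 0.476% of all genes were called. On the contralateral sham side Ccl5 differed by 1.28 ± 0.51, again without overlap, with an adjusted p of 0.357 where 0.332% of all genes were called. Contralateral tMCAO vessels had 9 of 9 mean log2 values lower at 7 days than at 24 h, although the mean count of Ccl2 was 200.7 against 177.3, with Ccl9 at -1.45 ± 0.68 and an adjusted p of 0.297, and 0% of all genes were called. In each of these 3 comparisons 1 of 9 ligands had an unadjusted p under 0.05, which held for 14.1% of all genes in ipsilateral sham, 10.8% in contralateral sham and 16.5% in contralateral tMCAO vessels.

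**Figure D3:**
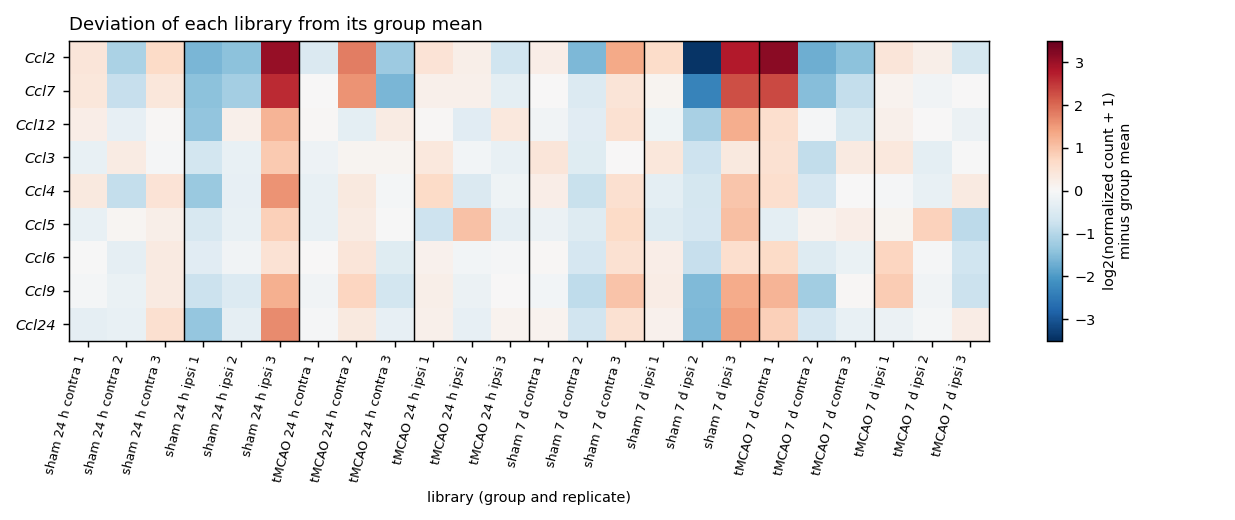
Deviation of each library from its group mean, on log2 of the normalized count plus 1, for the 9 ligands (rows) in the 24 libraries (columns, 3 to a group); red is above and blue below the mean. The column of sham ipsilateral replicate 3 is red throughout at 24 h and at 7 days, and the columns of contralateral tMCAO replicate 2 at 24 h and replicate 1 at 7 days are red for 8 of 9 ligands.

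Within a group the ligands varied together from library to library. In the ipsilateral sham group at 24 h replicate 3 was the highest library for 9 of 9 ligands and replicate 1 the lowest for 9 of 9. The factor between replicate 3 and the mean of the other 2 was 24.1 for Ccl2, 15.8 for Ccl7, 6.00 for Ccl4, 5.36 for Ccl24 and 1.71 for Ccl6. In the ipsilateral sham group at 7 days replicate 3 was highest for 8 of 9 and replicate 2 lowest for 9 of 9, with factors of 8.30 for Ccl2 and 7.58 for Ccl7. In the contralateral sham groups replicate 3 was also highest, for 6 of 9 at 24 h and 8 of 9 at 7 days, and replicate 2 lowest for 9 of 9 at 7 days, so the same numbers stood out in both hemispheres of sham mice at 7 days. Contralateral tMCAO groups had replicate 2 highest for 7 of 9 at 24 h and replicate 1 highest for 8 of 9 at 7 days. Over all genes tested, the share highest in a given library of its group was 27.8% to 41.8%.

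The libraries concerned were shared between the genes. Among the 18 libraries other than ipsilateral tMCAO, the top 5 for Ccl2 and for Ccl7 were the same: ipsilateral sham replicate 3 of each time point, contralateral tMCAO replicate 1 at 7 days and replicate 2 at 24 h, and ipsilateral sham replicate 1 at 7 days. Ipsilateral sham replicate 3 at 24 h was in the top 5 of 18 for 9 of 9 ligands. For Ccl2 these 5 libraries held 267 to 1170 counts against a median of 53.0 over the 18. For Ccl7 they held 125 to 557 counts against a median of 25.5.

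After group means were removed, Ccl2 and Ccl7 correlated at r = 0.97 over the 24 libraries and Ccl6 and Ccl9 at r = 0.95. Over the 36 pairs of ligands r ranged from 0.24 to 0.97 with a median of 0.73, the lowest being Ccl3 with Ccl5. Both of these pairs are neighbours on chromosome 11. The other neighbouring pairs lay below that median, from 0.49 for Ccl5 and Ccl9 to 0.70 for Ccl7 and Ccl12, and Ccl24, on chromosome 5, correlated at 0.84 to 0.89 with Ccl2, Ccl4, Ccl7, Ccl9 and Ccl12. The points share pooled animals, library and depth, and groups were removed by their means alone. The spread within groups was wide. The pooled SD on the log2 scale was 1.96 for Ccl2, more than for 99.9% of the genes tested, 1.5 for Ccl7, 0.93 for Ccl9, 0.87 for Ccl24, 0.77 for Ccl4, 0.71 for Ccl12, 0.66 for Ccl5, 0.53 for Ccl6 and 0.52 for Ccl3. The median gene had 0.238.

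Cell markers in the same libraries did not all follow the ligands. In the ipsilateral sham group at 24 h microglia marker sums were 2029, 3691 and 2301 in replicates 1 to 3 and perivascular macrophage sums 3056, 4996 and 4648, so replicate 2 was highest for both. At 7 days microglia sums were 3101, 2474 and 2180 and perivascular macrophage sums 4020, 2667 and 3975. Replicate 3 was highest in astrocyte sums, with 22424 against 18326 and 14706 at 24 h and 28990 against 14395 and 13404 at 7 days. It was also highest in endothelial sums, with 458873 against 429276 and 371913 at 24 h and 452721 against 332360 and 342948 at 7 days. Sums of neuron, oligodendrocyte and T and natural killer cell markers were highest in replicate 3 at 7 days (5992, 70353 and 167) but not at 24 h. Neutrophil sums were 226, 1169 and 642 at 24 h and 200, 303 and 1736 at 7 days. Contralateral tMCAO replicate 1 at 7 days had the highest astrocyte sum of the 24 libraries, 43933, the highest neuron sum, 12058, and the lowest microglia sum, 1597. What part any of these had in the ligand values was not tested.

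Most monocyte and neutrophil markers were also higher in the ipsilateral tMCAO vessels at 24 h. Among monocyte markers 6 of 7 were called higher at 24 h and 5 of 7 at 7 days in ipsilateral tMCAO against sham vessels, where 10% and 3.27% of all genes were called higher. Monocyte sums were mostly Fn1, which differed by -0.0005 at 24 h and by 0.65, called, at 7 days. These sums were 60518 to 66103 after tMCAO against 56917 to 61831 after sham surgery at 24 h. At 7 days they were 54302 to 88439 against 35127 to 46375. Neutrophil markers were called higher for 6 of 6 tested at 24 h and 1 of 6 at 7 days. Neutrophil sums were 2702 to 6051 after tMCAO against 226 to 1169 after sham surgery at 24 h, and 801 to 4803 against 200 to 1736 at 7 days. Of 8 microglia markers 2 were called lower at 24 h, and 1 was called higher and 1 lower at 7 days, where 18.3% and 13.2% of all genes were called in either direction. Of the perivascular macrophage markers, Siglec1, Pf4 (1.03 on the log2 scale) and F13a1 (0.74) were called higher at 24 h. Cd163, Cd209f, Lyve1 and Mrc1 were not called at 24 h. Pf4 was thus called higher at 24 h and lower at 7 days (-1.66), while Siglec1 was called higher at both times. No marker of these lists was at 0 in all 3 libraries of a group, and their part in the ligand differences was not tested.

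Of the 15 other CC ligands listed, 9 were in the table and 7 were tested. This list and the receptor and inducer lists below were also chosen with earlier results of these data known. Most genes named from them were picked for their large called differences. Their adjusted p-values from the limma fit over all genes are therefore a description. At 24 h 2 of 7 rose in ipsilateral tMCAO against sham vessels, where 10% of all genes were called higher, and none fell, with a median log2 difference of 0.63. Ccl11, the other eotaxin, read 848, 1353 and 339 counts after tMCAO and 29, 43 and 61 after sham surgery. This was a rise of 4.07 ± 0.54 on the log2 scale, larger than that of any of the 9 ligands described (adjusted p = 2.4e-05, limma). Ccl8 rose by 1.35 ± 0.46 (17, 69 and 66 against 10, 19 and 22, adjusted p = 0.0320, limma). Without sham replicate 1, or stroke replicate 2 or 3, 1 of 7 was called. At 7 days 0 of 7 passed the limma test, with 2 of 7 at an unadjusted p under 0.05 as for 29.3% of all genes, and Ccl11 was back to 87, 36 and 36 against 35, 13 and 79.

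Ccr2 and Ccr1, which bind ligands described here, were among the genes that rose at 24 h. The list of signalling CC receptors was not limited to receptors of the 9 ligands. Of 9 signalling CC receptors listed 5 were tested, and 3 of 5 rose in ipsilateral tMCAO against sham vessels, where 10% of all genes were called higher. Ccr2, which binds Ccl2, Ccl7 and Ccl12, read 612, 417 and 686 after tMCAO and 65, 108 and 100 after sham surgery, a log2 difference of 2.64 ± 0.49 (adjusted p = 5.17e-04, limma). Ccr1 rose by 2.79 ± 0.54 (adjusted p = 8.09e-04) and Ccr7, which guides dendritic cells and T cells to lymph nodes, by 2.33 ± 0.62 (adjusted p = 0.00785), both by limma. For each of the 3 all stroke libraries exceeded all sham libraries, as in 25% of all genes. At 7 days none of these 3 passed and 1 of 5 fell, where 9.95% of all genes were called lower: Ccr9, a receptor of gut-homing lymphocytes, at -0.94 ± 0.31 (adjusted p = 0.0431, limma). Ccr9 lost that call without sham replicate 1 or 2 or stroke replicate 1, where 0 of 5 receptors were called.

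Ackr1, an atypical receptor of venular endothelium that binds and transports CC and CXC ligands, rose at both times. It read 10655, 13195 and 11323 in the ipsilateral tMCAO libraries at 24 h against 554, 1862 and 1397 after sham surgery, a log2 difference of 3.37 ± 0.87 (adjusted p = 0.00667, limma). At 7 days it read 20573, 12530 and 4740 against 2457, 437 and 4342, a log2 difference of 2.68 ± 0.87 (adjusted p = 0.0377, limma). Libraries did not overlap at either time. The call at 7 days was lost without sham replicate 1, sham replicate 2 or stroke replicate 1. Of the 5 atypical receptors tested Ackr1 was the only one to pass, where 10% of all genes were called higher at 24 h and 3.27% at 7 days, and contralateral tMCAO vessels at 7 days held 9041, 9925 and 2463 counts.

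Among 10 cytokines and NF-kappaB genes known to induce chemokines, 7 were tested and 3 of 7 rose at 24 h, where 10% of all genes were called higher. Il1b, the cytokine interleukin-1 beta, read 597, 185 and 578 after tMCAO and 3, 41 and 22 after sham surgery, a log2 difference of 4.67 ± 0.93 (adjusted p = 0.00100, limma). Nfkb2 rose by 0.99 ± 0.35 (adjusted p = 0.0374) and Relb by 0.87 ± 0.30 (adjusted p = 0.0331), both by limma, and these encode partners of the noncanonical NF-kappaB dimer. Leaving out sham replicate 1 or 2 or stroke replicate 1 or 2 left 1 of 7 called. None of 7 passed limma at 7 days, and 2 of 7 had an unadjusted p under 0.05, as had 29.3% of all genes. Nfkbia, the most abundant of the list, which encodes the inhibitor that is itself induced by NF-kappaB, was at 0.76 ± 0.31 (adjusted p = 0.106).

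**Figure D4:**
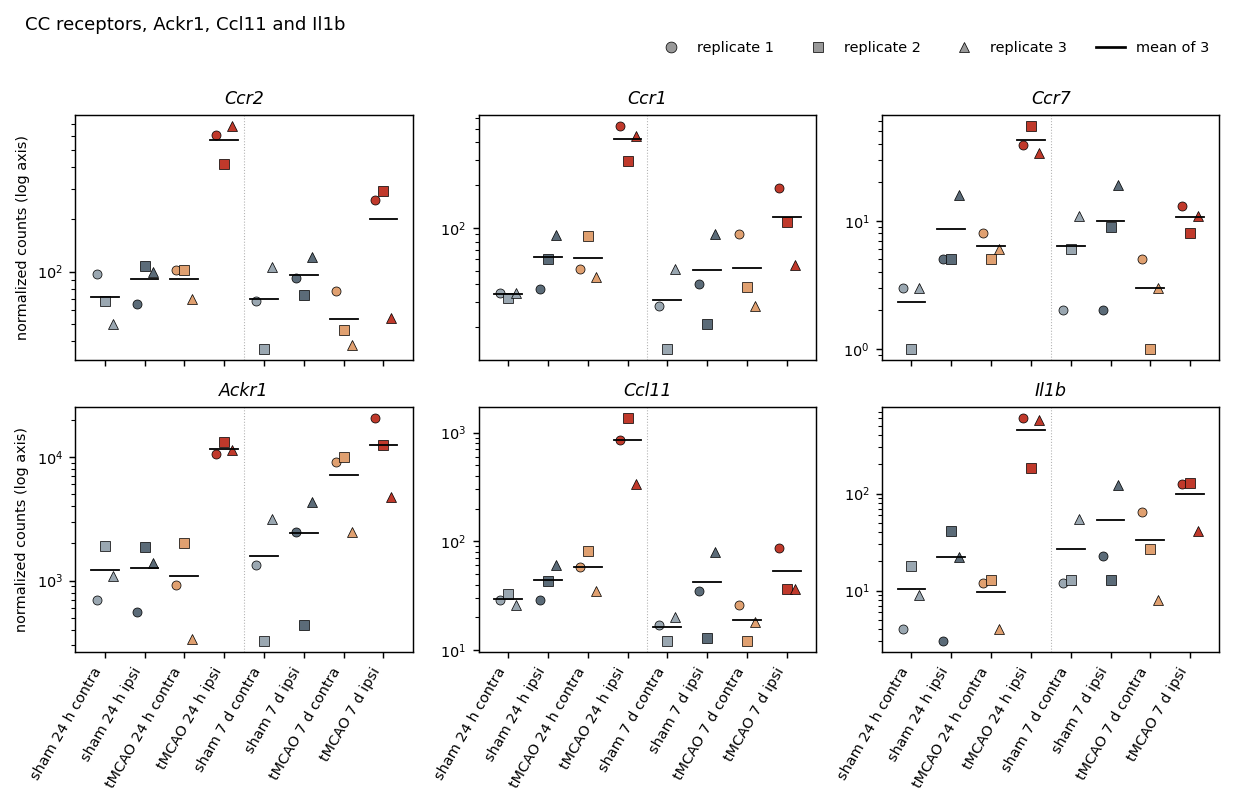
Normalized counts (log axis) of Ccr2, Ccr1, Ccr7, Ackr1, Ccl11 and Il1b in the 24 libraries by group, with the mean of 3 as a bar and the replicate as the symbol. The ipsilateral tMCAO libraries at 24 h lie above all sham libraries in each panel, and Ackr1 remains between 4740 and 20573 in the ipsilateral tMCAO libraries at 7 days.

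Genes other than the 9 ligands whose log2 values were most like those of a ligand over the 24 libraries differed between the ligands. Ccl2 was nearest to Loxl2 (r = 0.93), Osgin1 (0.90) and Fosl1 (0.90), and Ccl7 to Eprs (0.90), Loxl2 (0.90) and Ccl22 (0.89), itself a CC ligand. Lif, C5ar1 and Il6 were nearest to Ccl12 (0.89, 0.89 and 0.88), and C5ar1, Lif and Il6 to Ccl4 (0.88, 0.84 and 0.84). Ccl3 was nearest to Osgin1 (0.82), Fcgr3 (0.81) and Loxl2 (0.79). Loxl2 therefore stood among the nearest 3 of Ccl2, Ccl7 and Ccl3.

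The remaining ligands had other nearest genes. Ccl5 was nearest to Il2rb (0.90), Slfn2 (0.89) and Zbp1 (0.87), of which Il2rb encodes a receptor chain of T and natural killer cells. Ccl6 was nearest to Saa3, Ccr1 and Clec4d (0.97 each), Ccl9 to Ms4a6d (0.97), Ms4a6c (0.92) and Cd53 (0.92), and Ccl24 to F3 (0.88), Adra2a (0.88) and Eya1 (0.85). Ccr1, the receptor of Ccl6, was thus among its nearest genes. These correlations are over all 24 libraries, include the differences between groups, and are a description.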

How the data were processed

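Microvessel RNA of 24 libraries was prepared with a stranded mRNA kit and sequenced by the study. According to the submitters' processing notes, reads were aligned with STAR 2.5.2b to mm10 (GRCm38), counted per gene with featureCounts 1.5.1 and normalized with DESeq2 1.6.2, and the paper states other versions of the aligner and of the normalization. Reads that matched several genes were excluded by the authors, so reads from stretches that related ligands share would be missing from each of them. The authors deposited a score rather than raw counts: gene counts scaled by library size factors and then rounded, so count models were not run. Reads on genes were estimated from size factors inferred from the steps of low values, for depth only.

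Values were handled with R 4.3.3, limma 3.58.1, and the data.table package, version 1.17.8, and with Python 3.11.15, numpy 2.4.6, pandas 2.3.3 and matplotlib 3.10.9. Genes with a mean above 5 over the 24 libraries (15982) were fitted with limma on log2 of the value plus 1, with moderation along the trend of variance with mean, in 13 contrasts over all 8 groups. Standard errors are those of the fit after moderation. Benjamini-Hochberg adjustment ran over all genes tested. A call needed an adjusted p under 0.05 together with a log2 fold change beyond 0.585 in size. The fit was tested on simulated data. An exact permutation test of 3 libraries against 3 could not go below 0.1. Same-numbered libraries of the sham hemispheres deviated together (lowest correlation 0.145 at 24 h and 0.325 at 7 days), so the numbers given in the labels were taken to pair the sham libraries, and the fit with this replicate block called 0 of 9 ligands there too.

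The members, gene lists and tests were chosen with earlier results of these data known. Named outside the 9 were up to 4 called genes of each list with the largest difference, the most abundant where none was called, and the 3 genes most like each ligand. A further gene was left out of the lists and is not reported here. Exon lengths came from GENCODE vM21 (GRCm38), as the union of exons. Alternatives were a pseudocount of 0.5, a minimum mean of 20 or none, no fold limit, centring on medians, a replicate block, only the compared groups, and leaving out each library in turn.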

Additional observations from a re-analysis of the deposited data

Results flagged for a closer look

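The effect of stroke on the ipsilateral side differed between 7 days and 24 h by the interaction term for 3 of the 9 ligands, which is what set them apart for a closer look. The effect at 7 days minus that at 24 h was -5.99 for Ccl7, -3.29 for Ccl12 and -2.75 for Ccl4 on the log2 scale. The signs of the effects at 24 h and 7 days were opposite for each of the 3 (2.57 and -3.42 for Ccl7, 2.04 and -1.24 for Ccl12, 1.81 and -0.94 for Ccl4). None of the 3 had both effects called: that of Ccl7 was not called at 24 h, and those of Ccl12 and Ccl4 were not called at 7 days. The Ccl4 term lost its call under 12 of 19 alternatives, 2 of which left all libraries in. The members were chosen with these libraries known, so the values are a description.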

How the results depend on the processing

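Over the alternatives that leave all libraries in, the 9 ligands were called as often as in the fit reported, within 1.5 times, with these exceptions. For ipsilateral against contralateral tMCAO vessels at 24 h the count went from 2 to 7 with only the compared groups in the fit, and for ipsilateral tMCAO against sham vessels at 7 days from 2 to 1. The interaction count was 4 without replicate 3 of both ipsilateral sham groups, a removal chosen after seeing the data. Of the comparison lists, other CC ligands went from 2 to 1 at 24 h with only the compared groups, and at 7 days from 0 to 1 with that fit and with no filter on low values. Signalling receptors and atypical receptors at 7 days each went from 1 to 0 with only the compared groups. Leaving out 1 library moved the counts over these ranges: 1 to 2 at 24 h and 1 to 2 at 7 days against the contralateral side, 1 to 7 at 24 h and 1 to 4 at 7 days against sham, 3 to 6 between the time points, and 1 to 6 for the interaction. For the lists the ranges were 1 to 3 for other CC ligands, 3 to 3 for signalling receptors, 1 to 1 for atypical receptors and 1 to 3 for inducers at 24 h, and 0 to 2, 0 to 2, 0 to 2 and 0 to 1 at 7 days. In the 7 comparisons without ipsilateral stroke libraries the count was 0 under every alternative run. No single ligand's called difference reversed. Ccl3 and Ccl4 were not tested with a minimum mean of 20. The causes were not tested.

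With the replicate block by the number of the mouse pool, 7 of the 9 ligands were called between the hemispheres of tMCAO mice at 24 h in place of 2. There the lowest same-number correlation was 0.066, so the numbers were not taken to pair the stroke hemispheres. With the replicate block by number at 7 days against sham, other CC ligands went from 0 to 1, signalling receptors from 1 to 0 and atypical receptors from 1 to 0, where same-numbered libraries share only a number. The block changed no other count of the ligands by over 1.5 times.

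Values of Ccl3 and Ccl4 stayed at or under 40 counts, where a few reads move a log2 value, although the pooled SD of Ccl3 on the log2 scale was the smallest of the 9 (0.52).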
